A study of Mus musculus with 8 samples.

Results

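The 10 genes described here build the cell skeleton of the mouse liver. They are the cytoplasmic actins Actb and Actg1, the alpha tubulins Tuba1a, Tuba1b and Tuba1c, the beta tubulins Tubb2a and Tubb5, the keratins Krt8 and Krt18, and vimentin (Vim). They were taken by symbol, and all 10 were present among the 24539 entries of RNA-seq and the 25033 entries of Ribo-seq. All 10 also passed the filter on low values in both assays. RNA-seq reports polyadenylated mRNA, and Ribo-seq reports ribosome-protected fragments (RPFs), the pieces of mRNA that a translating ribosome shields from nuclease. Livers came from C57BL/6 mice that from week 8 were fed fat-rich chow (45% of kcal as fat) and were sampled at postnatal week 25. The HF group received this high-fat diet alone, and the HB group received the same diet with betaine at 2% (w/v) in the water, so both groups shared the high-fat diet and no standard-diet group was analysed here. The labels and the study's methods differ in the length of feeding. Each assay had 2 libraries per group, named HF1, HF2, HB1 and HB2. The labels describe pooled RNA preparations, while the study's methods describe 2 mice of each group chosen for sequencing. Which mouse a library came from is not given, so the libraries are counted as the replicates, and a p-value measures only the spread between them.

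Actins form the microfilaments of the cell cortex, and in hepatocytes they line the bile canaliculi. Alpha and beta tubulins pair one to one into the dimers of microtubules, the tracks for vesicles such as those that carry lipoproteins to the cell surface. Keratin 8, a type II keratin, and keratin 18, a type I keratin, join as obligate partners and are the main intermediate filament proteins of hepatocytes, while vimentin marks mesenchymal, endothelial and blood-derived cells. Tubulin mRNA is known to be degraded on the ribosome when free dimers are in excess, and actin genes are classical targets of serum response factor (SRF), which binds the CArG box.

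The libraries differed in depth. RNA-seq totals estimated from the steps of the RPKM values were 11661207 and 11824127 reads in HF and 22543469 and 18082686 in HB. Ribo-seq totals were 387980 and 1056546 in HF and only 257086 and 141890 in HB, a range of 7.45 times. At the HB2 depth 3 RPF reads, taken as the floor, were already worth 11.5 RPKM for Vim, so low RPF values in HB carry little information. Hepatocyte markers, led by Alb and Apoa1, summed to between 47617 and 60001 mRNA RPKM in the 4 RNA libraries, so that the defining genes of the labelled tissue were present at high levels. Of the 10, Serpina1a and Trf were called higher in HB and 0 lower in mRNA, where 7.92% of all genes tested were called higher and 19.1% lower. In bulk tissue, fewer cells of a type cannot be told apart from less RNA in each cell.

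All 10 members are protein-coding genes, placed on GRCm38 by GENCODE M21. Krt8 (ENSMUSG00000049382.10, chr15:101996698-102004482, minus strand) and Krt18 (ENSMUSG00000023043.7, chr15:102028180-102032027, plus strand) are neighbours on chromosome 15, transcribed away from each other. The alpha tubulins Tuba1b (ENSMUSG00000023004.8, chr15:98931425-98934565, minus), Tuba1a (ENSMUSG00000072235.6, chr15:98949837-98953703, minus) and Tuba1c (ENSMUSG00000043091.9, chr15:99029891-99038110, plus) lie in a cluster on the same chromosome. Actb (ENSMUSG00000029580.14) is at chr5:142903115-142906754 on the minus strand, and Actg1 (ENSMUSG00000062825.15) is at chr11:120345690-120348542, also on the minus strand. Tubb2a (ENSMUSG00000058672.7) lies at chr13:34074274-34078007 and Tubb5 (ENSMUSG00000001525.10) at chr17:35833921-35838306, both on the minus strand, and Vim (ENSMUSG00000026728.9) at chr2:13573927-13582826 on the plus strand.

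RefSeq start sites (GRCm38.p6) gave a 300-base promoter, from 250 bases before the start to 50 after it, for 9 of the 10 members, Actb being the one without an entry. Shown are those of the 3 genes whose mRNA rose in HB (Krt8, Tuba1b and Tuba1c), of Krt18, the partner of Krt8 whose mRNA did not pass the test, and of Actg1, the only one of the 9 with a CArG box. They are written 5′ to 3′ on the strand of the gene, and the capitals mark every match on either strand to the CArG box, to CCAAT, to the common core of the GC box, GGGCGG, or to the letters of a TATA box, TATAAA. They lie at chr15:102004293-102004592 (Krt8, minus), chr15:102027966-102028265 (Krt18, plus), chr15:98934341-98934640 (Tuba1b, minus), chr15:99029641-99029940 (Tuba1c, plus) and chr11:120348446-120348745 (Actg1, minus).
Krt8: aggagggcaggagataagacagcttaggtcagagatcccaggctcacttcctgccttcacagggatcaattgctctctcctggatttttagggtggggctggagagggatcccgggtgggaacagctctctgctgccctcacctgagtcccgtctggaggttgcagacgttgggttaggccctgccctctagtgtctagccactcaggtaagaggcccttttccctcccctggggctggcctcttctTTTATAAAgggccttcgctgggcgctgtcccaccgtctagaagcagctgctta
Krt18: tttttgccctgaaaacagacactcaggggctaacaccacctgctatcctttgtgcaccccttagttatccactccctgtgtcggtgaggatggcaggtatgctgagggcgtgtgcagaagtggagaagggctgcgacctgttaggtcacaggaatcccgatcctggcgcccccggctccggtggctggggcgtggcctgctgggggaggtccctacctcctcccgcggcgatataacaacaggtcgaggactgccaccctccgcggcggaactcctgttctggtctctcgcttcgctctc
Tuba1b: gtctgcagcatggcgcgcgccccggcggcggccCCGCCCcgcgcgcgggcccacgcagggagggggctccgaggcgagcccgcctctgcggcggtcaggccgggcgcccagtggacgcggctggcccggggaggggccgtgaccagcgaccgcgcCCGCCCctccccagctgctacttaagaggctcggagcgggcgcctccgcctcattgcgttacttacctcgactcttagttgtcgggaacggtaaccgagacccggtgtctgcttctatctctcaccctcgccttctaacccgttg
Tuba1c: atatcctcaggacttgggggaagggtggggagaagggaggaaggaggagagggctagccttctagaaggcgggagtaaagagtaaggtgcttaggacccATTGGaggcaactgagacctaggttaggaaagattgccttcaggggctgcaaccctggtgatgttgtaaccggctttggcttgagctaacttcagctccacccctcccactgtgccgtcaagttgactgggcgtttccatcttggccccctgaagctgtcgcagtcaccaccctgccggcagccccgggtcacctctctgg
Actg1: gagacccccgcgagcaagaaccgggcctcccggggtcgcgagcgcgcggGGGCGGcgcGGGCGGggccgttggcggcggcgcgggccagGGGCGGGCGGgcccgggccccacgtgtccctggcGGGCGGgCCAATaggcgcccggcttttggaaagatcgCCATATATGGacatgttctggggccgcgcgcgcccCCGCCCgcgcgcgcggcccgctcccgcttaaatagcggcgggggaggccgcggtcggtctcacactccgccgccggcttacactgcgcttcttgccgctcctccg

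The 3 promoters whose mRNA rose did not share one of the 4 motifs. Krt8 held TATAAA on both strands in overlapping positions at the annotated start itself, the first 3 bases before it. Tuba1b held 2 GGGCGG on the opposite strand, and Tuba1c held 1 CCAAT on the opposite strand, starting 151 bases before the start. Krt18 held none of the 4. Actg1 held the CArG box starting 90 bases before the start, 1 CCAAT and 6 GGGCGG, in a window of 77.3% G and C. Among the other members, Vim held 2 CCAAT and a TATAAA, Tubb2a 2 GGGCGG and a TATAAA, Tubb5 2 CCAAT and 2 GGGCGG, and Tuba1a 1 of each of CCAAT and GGGCGG. Of all 32851 promoters of this length, 1.63% held a CArG box, 37.4% CCAAT, 35.7% GGGCGG and 13.6% TATAAA, so only the CArG box of Actg1 was an uncommon match. A match is a description of letters and not a shown binding site.

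At the mRNA level Krt8, Tuba1b and Tuba1c rose in HB by 2.25- to 2.66-fold in mean RPKM, and Actb, the most abundant member, was lower in both HB libraries without passing the test. The 3 genes called higher of 10 stand beside 7.92% of the 10687 genes tested that were called higher, and the 0 called lower beside 19.1% called lower (limma on log2(RPKM + 1), Benjamini-Hochberg adjusted p under 0.05). At an unadjusted p under 0.05 the count was 3 higher, beside 12.9% of all genes tested, and 1 lower, beside 27.6%. The median log2 fold change of the members was 0.53, against -0.19 over all genes tested. The split of calls over all genes depends on scaling: 846 were called higher and 2044 lower with RPKM as deposited, and 1519 higher and 1039 lower with libraries at a common median, which moved the median of all genes by 0.27. The same 3 members were called under both, with log2 fold changes of 1.70 for Krt8, 1.43 for Tuba1c and 1.36 for Tuba1b at the common median. Without the filter on low values 16758 genes were tested and 0 were called, and the limma adjusted p was then 0.0550 for Krt8, 0.0579 for Tuba1b and 0.0634 for Tuba1c.

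Of the keratin partners, Krt8 passed the test in mRNA and Krt18 did not, and the difference between them is given as a ratio further on. Krt8 mRNA was at 57.8 and 84.2 RPKM in HF1 and HF2 and at 193 and 185 RPKM in HB1 and HB2. Both HB libraries stood well above both HF libraries, and the means were 71.0 ± 18.7 in HF and 189 ± 5.28 in HB (SD, n = 2 each). The log2 fold change was 1.43 (SE 0.28, limma adjusted p = 0.00829), the only one of the 10 that also met the thresholds used in the study for mRNA, that is, p under 0.001 before adjustment and a log2 fold change above 1 in size. At these thresholds 246 of the 10687 genes tested were higher and 701 lower. Krt18 mRNA was at 77.2 and 142 RPKM in HF and at 100.4 and 106 RPKM in HB. The HB values lay between the HF values, and its log2 fold change was -0.02 (95% interval -0.73 to 0.69, limma adjusted p = 0.968). Its direction depends on scaling: the log2 fold change was 0.25 when libraries were shifted to a common median. The Krt8 call was lost when HF1 was left out, with a limma adjusted p of 0.0746, the highest over the alternatives, and the lowest was 0.000307.

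**Figure D1:**
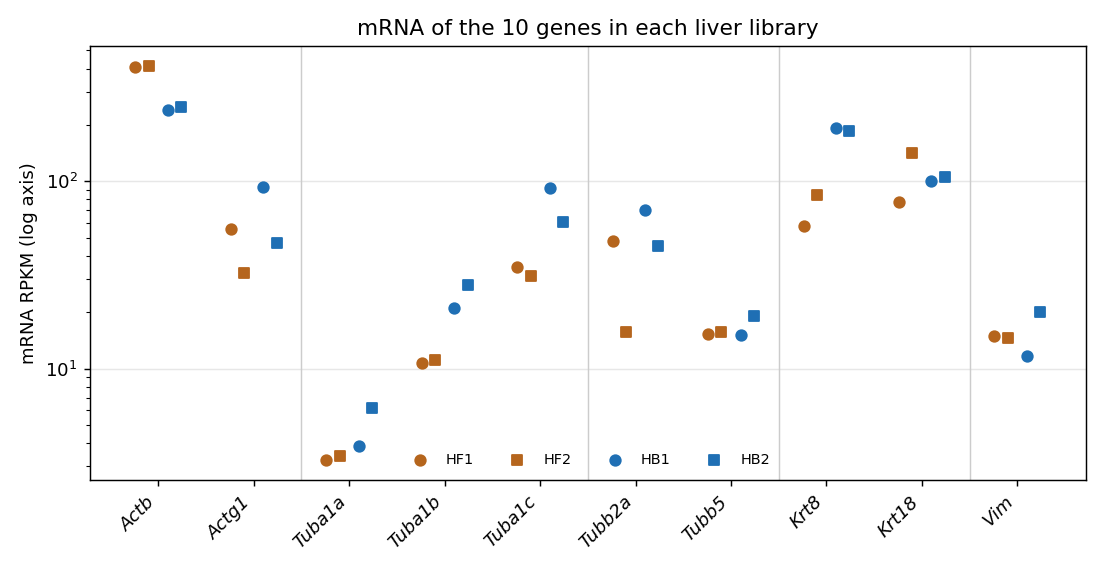
mRNA RPKM (log axis) of the 10 genes in each RNA library, with HF in brown and HB in blue and replicate 1 as circles and replicate 2 as squares. Both HB points lie above both HF points for Krt8 (193 and 185 against 57.8 and 84.2), Tuba1a, Tuba1b and Tuba1c, and below them for Actb.

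The actins had log2 fold changes of opposite sign in mRNA, neither past the test. Actb encodes beta-actin, a gene often used as a constant reference. Its mRNA was at 410.1 and 415 RPKM in HF and at 239 and 250.3 RPKM in HB. The libraries of each group were close to each other and the groups did not overlap, with an HB mean 0.594 times the HF mean. The log2 fold change was -0.75 (SE 0.26, 95% interval -1.33 to -0.17), with an unadjusted limma p of 0.0167 and an adjusted p of 0.0576. This value sat at the threshold. With RPKM rescaled to a common sum the adjusted p was 0.0358, without a variance trend it was 0.0441, and with limma voom on the recovered reads it was 0.04995. Without HB2 it was 0.0296, the lowest over the alternatives, and without HF1 it was 0.310, the highest. With libraries at a common median the log2 fold change shrank to -0.48 (limma adjusted p = 0.232).

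Actg1, the gene of gamma-actin, was at 55.6 and 32.6 RPKM in HF and at 92.7 and 46.6 RPKM in HB. HB2 lay between the HF libraries, so the groups overlapped, and the log2 fold change was 0.62 (SE 0.37, limma adjusted p = 0.238). It turned on single libraries: it was 1.10 without HB2 (limma adjusted p = 0.0217) and 0.99 without HF1 (0.128), but 0.13 without HB1 (0.788) and 0.24 without HF2 (0.755). The ratio of Actb to Actg1 mRNA was 7.38 and 12.7 in HF and 2.58 and 5.37 in HB. All of the HF ratios were higher than the HB ratios, which with 2 against 2 libraries cannot reach a two-sided exact permutation p below 0.333.

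Among the listed alpha tubulins, Tuba1c carried most of the mRNA. Tuba4a, an alpha tubulin outside the list, was at 65.8 and 73.3 RPKM in HF and 83.2 and 64.4 RPKM in HB. Its log2 fold change was 0.076 (limma adjusted p = 0.777). Tuba1c was at 34.7 and 31.3 RPKM in HF and at 91.7 and 60.8 RPKM in HB, a log2 fold change of 1.16 (SE 0.28, limma adjusted p = 0.0165). Tuba1b was at 10.7 and 11.1 RPKM in HF and at 21.1 and 27.9 RPKM in HB, a log2 fold change of 1.09 (SE 0.26, limma adjusted p = 0.0153). In both genes the groups did not overlap. Tuba1a, the alpha tubulin known best from neurons, was low, at 3.23 and 3.40 RPKM in HF and 3.88 and 6.15 RPKM in HB. Its log2 fold change of 0.45 (SE 0.27, limma adjusted p = 0.237) did not pass, although the groups did not overlap here either. How many of all genes tested separate in this way was not counted. The summed mRNA of Tuba1a, Tuba1b and Tuba1c, without Tuba4a, was 47.2 ± 2.00 RPKM in HF and 106 ± 15.4 RPKM in HB (SD, n = 2 each), 2.24 times higher. The share of Tuba1c in this sum was 69.8% in HF and 71.3% in HB. The Tuba1b call was lost on leaving out HF1 (limma adjusted p = 0.0933) or HF2 (0.0575), and that of Tuba1c on leaving out HF2 (0.0703).

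The beta tubulins did not pass the test at the mRNA level. Tubb2a was at 48.2 and 15.7 RPKM in HF and at 70.6 and 45.4 RPKM in HB. HF1 exceeded HB2, and the log2 fold change of 1.01 (SE 0.45, limma adjusted p = 0.124) turned on the HF libraries, at 1.79 without HF1 (limma adjusted p = 0.00195) and 0.23 without HF2. Tubb5, the broadly expressed beta tubulin, was at 15.2 and 15.6 RPKM in HF and at 15.1 and 19.0 RPKM in HB, with a log2 fold change of 0.13 (95% interval -0.43 to 0.69, limma adjusted p = 0.729). The HF values of Tubb5 lay between the HB values.

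Vim, a gene of non-hepatocyte cells in the liver, was at 15.0 and 14.6 RPKM in HF and at 11.6 and 20.1 RPKM in HB. The HB libraries lay on either side of the HF libraries, and the log2 fold change was 0.05 (95% interval -0.61 to 0.70, limma adjusted p = 0.920). Over the same libraries the 10 stellate and mesenchymal markers summed to 44.7 and 40.2 RPKM in HF and 79.6 and 53.8 in HB, mostly through Dcn (21.9 and 22.4 against 57.8 and 30.6 RPKM), with 0 of 9 tested called. The 10 Kupffer cell markers summed to 186 and 228 RPKM in HF and 283 and 279 in HB, with 3 called higher, while Clec4f was at 72.6 and 64.4 RPKM in HF and 48.9 and 49.6 in HB and C1qa at 31.1 and 51.7 against 56.5 and 60.8. The 10 endothelial markers, led by Clec4g and Eng, summed to 163 and 154 RPKM in HF and 105 and 131 in HB, with 2 called lower. Red cell genes, led by Hba-a2 and Hbb-bs, summed to 523 to 675 RPKM in HF and 738 to 2249 in HB, and 3 of 5 tested were called higher. These marker calls stand beside 7.92% of all genes tested called higher in mRNA and 19.1% called lower. The part of these cells in the values of Vim or of the actins was not tested.

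Cholangiocytes also use Krt8 and Krt18, so their markers are set beside the keratins. The 8 bile duct markers summed to 32.9 and 43.2 mRNA RPKM in HF and to 19.5 and 31.7 in HB. Their most abundant gene was Spp1, at 23.3 and 27.8 RPKM in HF and 13.7 and 21.8 in HB. Krt19, the keratin of bile ducts, was at 0.933 to 1.75 RPKM in HF and at 0.965 to 2.17 in HB, and Krt7, Epcam and Cldn4 had 0 RPF reads in every Ribo library. The RPFs of the 8 markers summed to 17.0 and 16.8 RPKM in HF and to 9.86 and 5.10 in HB, and those of Spp1 were at 10.2 and 13.1 RPKM in HF and at 7.69 and 0 in HB. Both HB sums were thus below both HF sums, as were the keratin RPFs. Of the other marker lists, the stellate one alone showed this order in RPFs, at 163 and 141 RPKM in HF and 110 and 97.7 in HB. Over all genes tested the median log2 fold change of RPFs was -0.43. The floor of 3 reads for a transcript of 1 kb, 11.7 RPKM in HB1 and 21.1 in HB2, was above the HB sums of the bile duct markers. Of the 3 bile duct markers tested in each assay 0 were called (at an unadjusted limma p under 0.05, 1 was lower in mRNA, where 27.6% of all genes were, and 0 in RPFs). Their part in the keratin values was not tested.

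At the level of RPFs no member passed the adjusted test, and none of the 11190 genes tested did (0% called, smallest limma adjusted p = 0.108). With limma voom on the recovered reads 51 genes were called higher and 29 lower of 11189, with 0 of the members among them. A replicate block called 13 genes higher and 11 lower, and a filter at a mean of 5 RPKM called 1 lower. At an unadjusted p under 0.05, 0 members were higher, beside 1.72% of all genes tested, and 1 was lower, beside 8.31%. That gene was Krt18. The median log2 fold change of the members was -0.33, against -0.43 over all genes tested.

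Krt18 RPFs were at 58.9 and 53.4 RPKM in HF, from 32 and 79 reads, and at 25.0 and 10.1 RPKM in HB, from 9 and 2 reads. Both HB libraries were below both HF libraries, and the means were 56.2 ± 3.89 in HF and 17.5 ± 10.6 in HB (SD, n = 2 each). The log2 fold change was -1.75 (SE 0.51), with an unadjusted limma p of 0.0189 and an adjusted p of 0.493. Leaving out an HF library ended the unadjusted call, with a limma p of 0.168 without HF1 and 0.160 without HF2. Without HB1 the log2 fold change was -2.37, and without HB2 it was -1.13. Counting error alone was wide in HB2, with an exact Poisson 95% interval of 1.22 to 36.4 RPKM. Krt8 RPFs were at 62.8 and 44.0 RPKM in HF, from 44 and 84 reads, and at 38.8 and 27.3 RPKM in HB, from 18 and 7 reads. Both HB libraries lay below both HF libraries, opposite to its mRNA. The log2 fold change was -0.68 (95% interval -1.63 to 0.28, limma adjusted p = 0.599), beside a median of -0.43 over all genes tested. It was -0.35 with libraries at a common median and -1.53 with a common sum. The summed keratin RPFs were 110 ± 17.2 RPKM in HF and 50.6 ± 18.7 in HB (SD, n = 2 each), where the summed mRNA was 181 ± 64.4 and 292 ± 1.36.

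**Figure D2:**
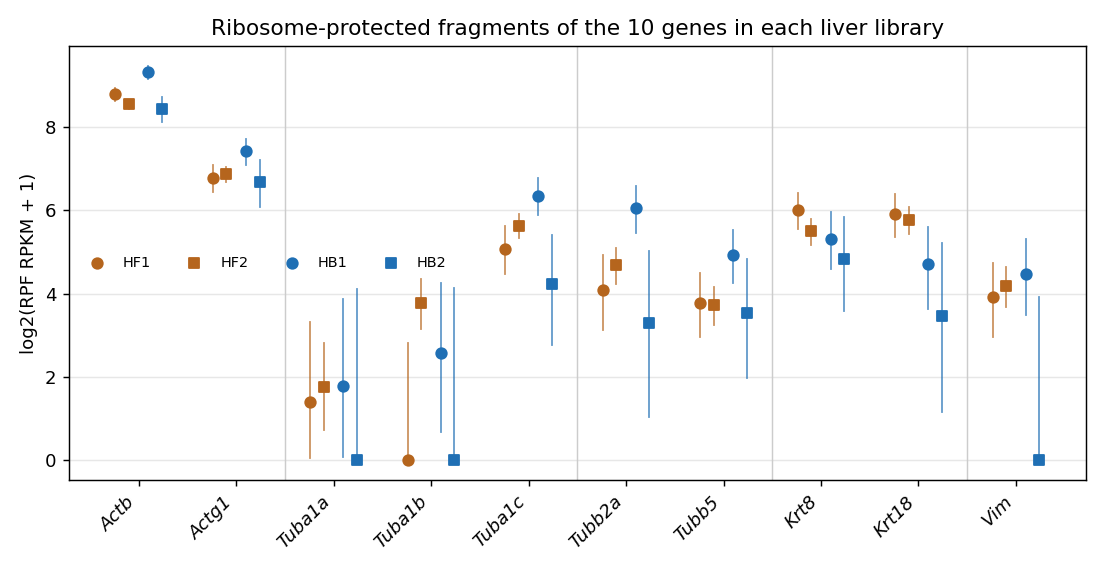
RPFs of the 10 genes in each Ribo library as log2(RPKM + 1), with the bars giving the exact Poisson 95% interval of the reads, which covers counting error only. The bars are longest in HB2, the shallowest library, and both keratins lie lower in HB than in HF.

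Actb held the most RPFs of the 10 genes in every library. They were at 439 and 371 RPKM in HF, from 327 and 753 reads, and at 634 and 341 RPKM in HB, from 313 and 93 reads. HB1 was the highest library and HB2 the lowest, so the RPFs did not show the order seen in mRNA, with a log2 fold change of 0.20 (95% interval -0.79 to 1.20, limma adjusted p = 0.852). Actg1 RPFs were at 108 and 115 RPKM in HF and 169 and 101 RPKM in HB, with the same order of HB libraries and a log2 fold change of 0.23 (SE 0.35, limma adjusted p = 0.823). The direction of both actins turned with scaling, to -0.67 for Actb and -0.64 for Actg1 when RPKM were rescaled to a common sum. The ratio of Actb to Actg1 RPFs was 4.06 and 3.22 in HF and 3.75 and 3.38 in HB. The HB ratios lay between the HF ratios, and the difference between the assays was not tested.

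Tubulin RPFs rested on few reads. Tuba1c had 32.6 and 48.4 RPKM in HF and 80.7 and 17.8 RPKM in HB, from 25, 101, 41 and 5 reads. Tubb2a had 16.1 and 24.8 RPKM in HF and 65.4 and 8.78 RPKM in HB, and Tubb5 had 12.7 and 12.2 RPKM in HF and 29.4 and 10.7 RPKM in HB. In all 3 genes HB1 was the highest and HB2 the lowest library, so the HB libraries enclosed the HF libraries. The log2 fold changes were -0.05 for Tuba1c (SE 0.76), 0.28 for Tubb2a (SE 0.97) and 0.49 for Tubb5 (SE 0.59), and none had an unadjusted limma p under 0.05. Tuba1b had 0, 21, 2 and 0 reads and Tuba1a 1, 4, 1 and 0 reads in HF1, HF2, HB1 and HB2, so both were at or under the floor of 3 reads in 3 of the 4 libraries. Vim had 14.1 and 17.0 RPKM in HF and 21.2 RPKM in HB1, but 0 reads in HB2, where the floor of 3 reads was worth 11.5 RPKM and the exact Poisson 95% interval of 0 reads reached 14.2 RPKM, above HF1 and below HF2. Its HB libraries lay on either side of the HF libraries.

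Translation efficiency (TE) was taken as the RPF RPKM over the mRNA RPKM of the libraries with the same group and number. It was lower in both HB libraries than in both HF libraries for Krt8, Krt18 and Tuba1c, and higher for Actb. No member passed the adjusted test, and how many of all genes separate in this way was not counted. The number is not known to mark the same animal in both assays. With the numbers crossed between the assays, the groups were separated in the same direction for Krt8, Krt18 and Actb. They then overlapped for Tuba1c, and Tuba1a was lower in HB only when crossed. Of the 9455 genes tested 0% passed the adjusted limma test (smallest adjusted p = 0.328), the members included, and an interaction model over all 8 libraries called 1 gene higher and 0 lower, with 0 of the members among them. At an unadjusted p under 0.05, 0 members were higher, beside 2.83% of all genes tested, and 1 was lower, beside 9.37%. The median log2 fold change of TE was -1.17 over the members and -0.35 over all genes tested.

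Krt8 was the member with the unadjusted p under 0.05. Its TE was 1.09 and 0.523 in HF and 0.201 and 0.147 in HB. Both HB ratios were below both HF ratios, and the log2 fold change was -2.10 (SE 0.77), with an unadjusted limma p of 0.0343 and an adjusted p of 0.380. It met the thresholds used in the study for TE, that is, p under 0.05 before adjustment and a log2 fold change above 2 in size. So did 435 of the 9455 genes tested in the lower direction and 141 in the higher. The interaction model gave the same fold change with a limma adjusted p of 0.123, and with the pseudocount at 0.1 the unadjusted limma p was 0.0719. Krt18 TE was 0.763 and 0.376 in HF and 0.249 and 0.0950 in HB. The groups did not overlap here either, and the log2 fold change was -1.73 (95% interval -3.88 to 0.42, limma adjusted p = 0.481). In Krt8 the ratio combined a higher mRNA with lower RPF values, and in Krt18 an mRNA whose HB values lay within the HF values with lower RPF values. Without HB1 both keratins passed, with limma adjusted p-values of 0.0470 for Krt8 and 0.0488 for Krt18, in a fit that assumes the lone HB ratio to vary like HF. Over the other alternatives no keratin passed, and without HF1 the limma adjusted p of Krt8 was 0.9999.

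**Figure D3:**
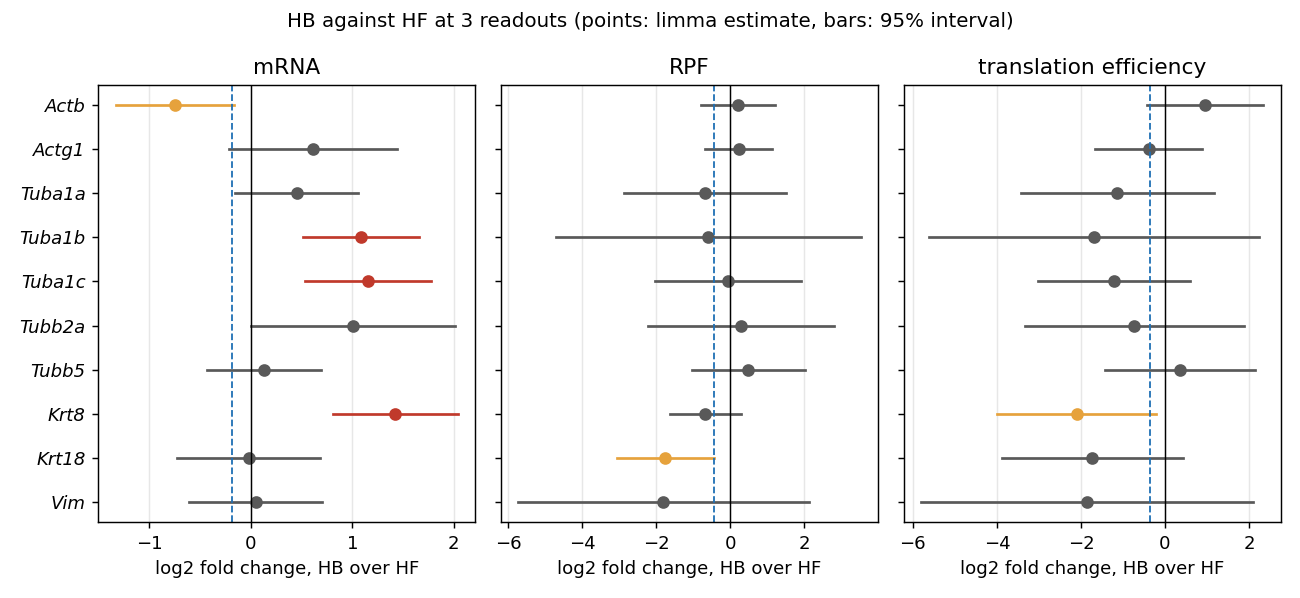
log2 fold change of HB over HF for mRNA, RPFs and TE, with limma estimates as points and 95% intervals as bars. Red marks an adjusted p under 0.05 (Krt8, Tuba1b and Tuba1c in mRNA), orange an unadjusted p under 0.05 (Actb in mRNA, Krt18 in RPFs, Krt8 in TE), grey the rest, and the dashed line is the median of all genes tested.

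Actb TE was 1.07 and 0.895 in HF and 2.65 and 1.36 in HB. Both HB ratios were higher, but the log2 fold change of 0.95 (SE 0.57, limma adjusted p = 0.526) did not pass, and it was 0.13 with RPKM rescaled to a common sum. Actg1 TE was 1.95 and 3.54 in HF and 1.83 and 2.17 in HB, with a log2 fold change of -0.39 (SE 0.52). Tuba1c TE was 0.939 and 1.54 in HF and 0.880 and 0.293 in HB, but with the numbers crossed it was 1.04 and 1.39 in HF and 1.33 and 0.194 in HB, where the groups overlapped. Its log2 fold change was -1.21 (95% interval -3.02 to 0.60, limma adjusted p = 0.536). Tubb2a TE ran from 0.333 to 1.58 in HF and from 0.193 to 0.926 in HB, and Tubb5 TE from 0.778 to 0.833 in HF and from 0.560 to 1.95 in HB. In both beta tubulins the groups overlapped, also with the numbers crossed. Tuba1a, Tuba1b and Vim, with 0 RPF reads in HB2, had log2 fold changes of -1.13, -1.69 and -1.85, and the 95% interval of each included 0.

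Within a library, the ratio of Krt8 to Krt18 does not depend on the library total. In mRNA it was 0.748 and 0.593 in HF and 1.92 and 1.75 in HB, with means of 0.670 ± 0.110 and 1.83 ± 0.121 (SD, n = 2 each). In RPFs it was 1.07 and 0.825 in HF and 1.55 and 2.71 in HB, with means of 0.946 ± 0.171 and 2.13 ± 0.823. Krt8 was thus the minor partner in mRNA in HF and the major one in HB, and in both assays every HB ratio exceeded every HF ratio. The RPF ratio of HB2 rested on 7 and 2 reads, and with 2 against 2 libraries no two-sided exact permutation p can be below 0.333.

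**Figure D4:**
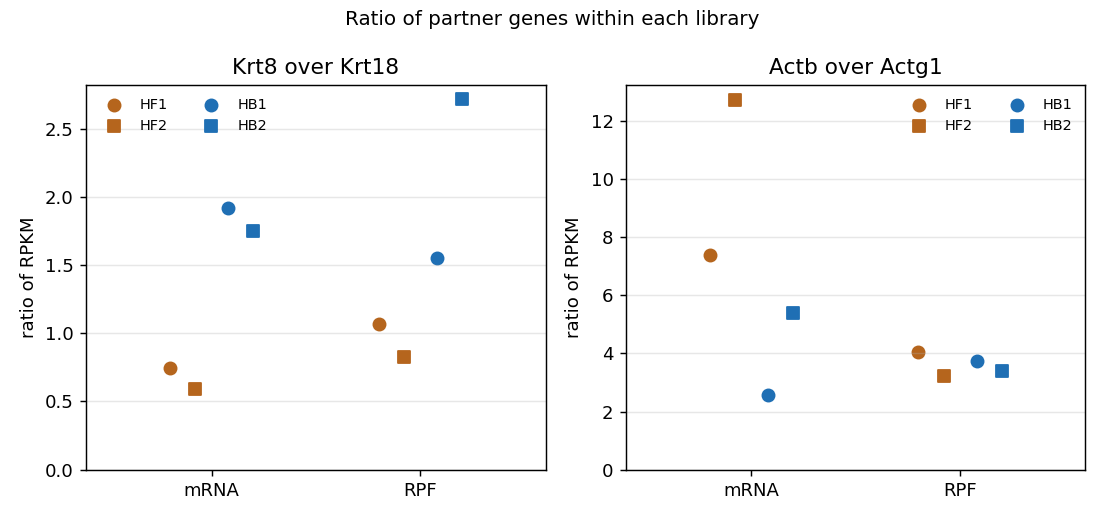
Ratio of RPKM of Krt8 to Krt18 (left) and of Actb to Actg1 (right) in each library, for mRNA and RPFs, with HF in brown and HB in blue. The keratin ratio is higher in HB in both assays, whereas the actin ratios of the groups do not overlap in mRNA (7.38 and 12.7 against 2.58 and 5.37) and overlap in RPFs (3.22 to 4.06 over the 4 Ribo libraries).

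How the authors' mapping treated reads that fit several genes is not given in the sources used here, and the members differ in how much of their sequence is their own. The labels give 50 cycles for RNA-seq and the study's methods give 100, so exact stretches of both lengths were compared with the transcripts of all other GENCODE M21 genes, and stretches of 30 bases were used for RPFs. Of the 50-base stretches, 72.9% of Tuba1a, 73.8% of Tuba1b and 61.0% of Tuba1c occurred in another gene, Tuba1c being the leading one for Tuba1a and Tuba1b and Tuba1b for Tuba1c, and their coding sequences were 97.1% to 98.3% identical. At 100 bases the shares were 65.1%, 69.5% and 53.4%. A division of alpha tubulin reads among the 3 genes is therefore uncertain at either read length. Actg1 shared 56.7% of its 50-base stretches, and all of those in its coding sequence, with annotated copies such as Gm12715, against 14.2% for Actb. At 100 bases the shares were 51.1% and 1.10%. Actb and Actg1 were 88.6% identical over the coding sequence but had only 1.603% of the Actb stretches in common.

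Krt8 shared 26.9% of its 50-base stretches with the pseudogene Krt8-ps, and Krt18 shared 0.720%. At 100 bases the shares were 16.9% and 0%, and at 30 bases 32.9% and 12.4%. Tubb2a shared 49.6% at 50 bases and 36.9% at 100, mostly with Tubb2b, which was at 0 to 0.0575 mRNA RPKM in these libraries, and Tubb5 (0.115%) and Vim (0%) had almost no shared stretch of 50 bases. Acta1, the skeletal muscle actin, had RPFs of 34.5, 23.5, 29.7 and 8.97 RPKM in HF1, HF2, HB1 and HB2 with an mRNA of at most 0.0546 RPKM, and 4.23% of its 30-base stretches are also in Actb or Actg1. It was singled out after its values were seen, and whether shared fragments account for it was not tested.

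**Figure D5:**
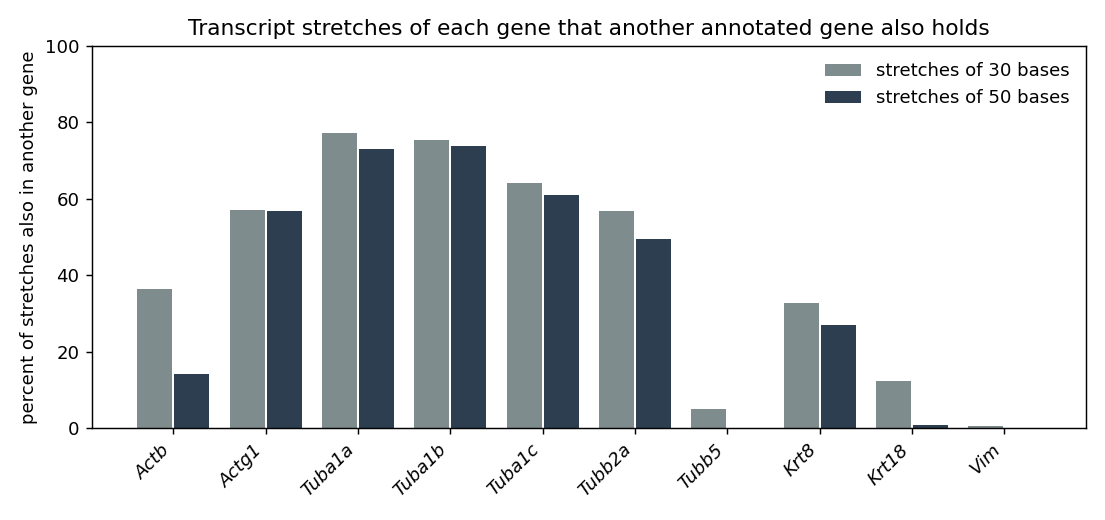
Percent of the stretches of 30 bases (grey) and 50 bases (dark) of each member's transcript that occur in the transcript of another annotated gene. The alpha tubulins lie between 61.0% and 77.3%, and Vim and Tubb5 are below 5%.

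Calls among the other genes of the cytoskeleton are to be read beside the 7.92% of all genes tested that were called higher in mRNA and the 19.1% called lower, and counts at an unadjusted p under 0.05 beside 12.9% higher and 27.6% lower. Of the 5 other tubulins tested 1 was called higher, Tubb4b, an abundant beta tubulin, at 48.9 and 45.1 RPKM in HF and 92.0 and 76.3 RPKM in HB (log2 fold change 0.82, limma adjusted p = 0.0379). No other tubulin was called lower. Of 21 genes that fold tubulin or assemble its dimer, 3 were called higher and 4 lower, with a median log2 fold change of 0.04. Cct5, a subunit of the chaperonin that folds actin and tubulin, was at 21.1 and 22.5 RPKM in HF and 59.8 and 42.2 RPKM in HB, and Tbca, a cofactor of beta tubulin folding, at 59.0 and 64.9 against 117 and 98.2. Tbce, a cofactor of dimer assembly, was lower at 21.9 and 14.2 against 7.36 and 5.49 RPKM, and Pfdn2, a prefoldin subunit, at 162 and 149.8 against 65.1 and 85.6. Ttc5, the factor that binds nascent tubulin and starts the decay of its mRNA, had a log2 fold change of -0.71 (limma adjusted p = 0.0610), and it is named for that role and not by the rule.

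Of the 23 microtubule-associated genes tested, 1 was called higher and 3 lower. Stmn1, which sequesters tubulin dimers, was at 2.51 and 4.39 RPKM in HF and 5.82 and 10.4 RPKM in HB. Hdac6, the tubulin deacetylase, was at 11.5 and 13.6 against 4.96 and 6.09 RPKM, and Klc1, a kinesin light chain, at 16.9 and 15.1 against 6.11 and 8.45. With libraries at a common median none of the 3 lower calls remained, since 0 genes of the list were then called lower.

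Of the 31 actin filament regulators tested, 0 were called higher and 1 lower (3 in each direction at an unadjusted limma p under 0.05). That one was Tmsb10, a thymosin that sequesters actin monomers, at 75.4 and 74.7 RPKM in HF and 22.8 and 39.6 RPKM in HB (log2 fold change -1.29, limma adjusted p = 0.0142). Of 33 crosslinkers and myosins 2 were called in each direction. Myl12a, a myosin regulatory light chain, was at 14.2 and 15.5 against 39.3 and 31.8 RPKM and Tagln, transgelin, at 3.41 and 4.43 against 8.17 and 11.6. Mylk, the kinase of the myosin light chain, was lower at 44.5 and 35.9 against 13.1 and 10.8 RPKM, and Tln1, talin, at 20.4 and 21.3 against 9.19 and 12.5. Of the 10 tested genes of the SRF pathway, 1 was called (at an unadjusted limma p under 0.05, 1 was higher and 3 lower). Their median log2 fold change was -0.47, against -0.19 over all genes tested. The called gene was Limk2, a kinase that inactivates cofilin, lower at 6.64 and 5.29 against 1.68 and 1.66 RPKM. Srf itself was at 3.54 and 3.82 in HF and 3.96 and 3.72 in HB. Of the list of other actins and actin-related genes 4 were tested, the smooth muscle actin Acta2 and the actin-related Actr1a, Actr1b and Actl6a, and 0 were called in either direction (0 at an unadjusted limma p under 0.05).

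Of 12 partners of keratin filaments 1 was called higher and 2 lower. Sqstm1, p62, which accumulates with Krt8 and Krt18 in hepatic inclusion bodies, was at 109 and 94.8 RPKM in HF and 181 and 178 RPKM in HB (log2 fold change 0.81, limma adjusted p = 0.0404). Eppk1, epiplakin, which binds keratins, was lower at 13.4 and 9.62 against 2.04 and 4.51 RPKM, and Tchp, trichoplein, at 3.15 and 3.37 against 0.651 and 1.76. Of the 6 other intermediate filament genes tested, Lmnb2, a lamin, was called lower at 15.2 and 10.9 against 4.61 and 4.35 RPKM, and 0 were called higher (1 at an unadjusted limma p under 0.05). In RPFs and in TE none of the genes in these lists passed the adjusted limma test, as none did among all genes. Several list counts depend on scaling: with libraries at a common median the calls were 5 higher and 1 lower for tubulin folding, 4 higher and 1 lower for crosslinkers and myosins, 4 higher for the actin filament regulators, 1 higher for the SRF pathway, 2 higher and 1 lower for the keratin partners and 1 higher for the other intermediate filaments. These counts are to be read beside 1519 higher and 1039 lower of all 10687 genes tested at a common median.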

How the data were processed

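Liver mRNA and RPFs were measured in 2 libraries per group and assay. The authors mapped reads to mm10 with FANSe2 (version not given in the sources used here) and deposited RPKM, a read number corrected for transcript length and library size. The submitters' processing notes also name edgeR, whose results were not used. The deposited RPKM lie on steps of 1 read, and whole reads were recovered from them: 99.96% of RNA-seq and 100.0% of Ribo-seq values came out whole within 0.05 of a read. That share follows from fitting a length to each gene and is no independent check of the library totals, which were estimated on single-exon genes of known length. There, 8 of 24, 15 of 30, 23 of 35 and 18 of 32 low RNA-seq values (HF1, HF2, HB1, HB2) and 104 of 110, 121 of 129, 101 of 105 and 91 of 96 Ribo-seq values were whole within 0.002 of a read, so the RNA-seq totals are the less certain. The recovered length of every member exceeded its coding sequence, but several were shorter than the GENCODE transcript used for the shared stretches (1834 against 2193 bases for Vim, 1591 against 1803 for Tuba1a). The lengths were the same in both assays for all members but Actg1 (1908 bases in RNA-seq, 1953 in Ribo-seq), whose TE carries that difference. RNA-seq entries whose symbol occurred more than once (4) did not enter the tests.

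HB was compared with HF by limma 3.58.1 (R 4.3.3) on log2(RPKM + 1), with lmFit and with eBayes under a variance trend, for genes that averaged 1 RPKM or more across an assay's 4 libraries. Tests were two-sided, and p-values were adjusted by Benjamini-Hochberg over all genes tested. Fold changes are on that scale, which understates the change of low genes. For TE the fit used the difference of the log2(RPKM + 1) values, RPFs minus mRNA, and TE values printed for a library are ratios without the added constant. The limma steps of each assay were tried on simulated reads with large changes and a small replicate spread. That trial did not cover TE and is no guide to members with few RPF reads. Read intervals are exact Poisson intervals and, like the floor of 3 reads, cover counting error only.

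The members and lists were chosen with earlier results of these data known. Named genes were all 10 members, up to 2 genes called in each direction in mRNA from each wider list by smallest p, and the 2 most abundant genes of each marker list (1 gene that this rule selects is not reported here); Dcn was highest and Rgs5 (5.02 and 3.55 against 4.17 and 4.20 mRNA RPKM in HF and HB) next among stellate markers. Markers of lymphocytes, led by Ptprc and Nkg7, summed to 7.46 and 9.53 mRNA RPKM in HF and 3.71 and 3.62 in HB, with 1 of 1 tested called lower (Ptprc). Those of neutrophils, led by S100a8 and S100a9, summed to 11.1 and 57.0 against 4.31 and 5.39, with 3 of 3 tested called lower. Of all genes tested 19.1% were called lower in mRNA. The part of lymphocytes and neutrophils in the results was not tested. Coordinates, transcripts and coding sequences came from GENCODE M21 and promoters from RefSeq. No protein sequences were used here. Alternatives were a pseudocount of 0.1, other filters, other scalings, no variance trend, a replicate block, the thresholds of the study, voom on recovered reads, an interaction model, crossed numbers and leaving out each library.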

Additional observations from a re-analysis of the deposited data

How the results depend on the processing

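The 3 members called higher in mRNA became 0 without the filter on low values (16758 genes were then tested and 0 were called) and 1 with the thresholds of the study. The number also changed on leaving out a library. The 0 called lower became 1 (Actb) with a common sum, without a variance trend and with voom, and 0 to 1 on leaving out a library. In RPFs at an unadjusted p under 0.05, members higher ran from 0 to 2 and lower from 0 to 3 without a library, and 2 were lower with a common sum. In TE, members higher ran from 0 to 2 and lower from 0 to 6 without a library, and lower numbered 0 with a pseudocount of 0.1, 4 with a common sum and 2 with the interaction model. At an adjusted p under 0.05 in TE, 0 to 4 members passed, the 4 without HB1, a fit with 1 HB ratio that is assumed to vary like HF and that called 321 genes higher and 1280 lower. The cause of these shifts was not tested.

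With the replicate block the member lower in TE at an unadjusted p under 0.05 became 0, and 4 members were higher in mRNA, Tubb2a being added. Over genes, HF1 and HB1 deviated from the means of their groups with r = -0.10 in RNA-seq and r = -0.014 in Ribo-seq. The libraries of the same number in the 2 assays did so with r = -0.0024 in HF and r = -0.077 in HB. With 2 libraries per group and shallow Ribo-seq libraries, these values cannot decide whether the numbers pair the libraries.

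Directions turned as follows in log2 fold change. In mRNA, Krt18 was 0.25 with a common median, and without a library Krt18 ran from -0.46 to 0.41, Tubb5 from -0.030 to 0.29 and Vim from -0.32 to 0.42. In RPFs a common sum gave -0.67 for Actb, -0.64 for Actg1, -0.53 for Tubb2a and -0.32 for Tubb5, a common median gave 0.27 for Tuba1c, and voom gave 0.15 for Tuba1c and 0.16 for Tuba1a. Without a library RPF values ran from -0.24 to 0.65 for Actb, -0.14 to 0.60 for Actg1, -1.57 to 0.21 for Tuba1a, -2.49 to 1.29 for Tuba1b, -1.11 to 1.00 for Tuba1c, -1.10 to 1.66 for Tubb2a, -0.20 to 1.18 for Tubb5 and -4.04 to 0.43 for Vim. In TE a common sum gave -0.40 for Tubb5, and without a library TE ran from -0.81 to 0.032 for Actg1, -2.30 to 0.036 for Tuba1a, -3.55 to 0.18 for Tuba1b, -1.80 to 0.35 for Tubb2a, -0.49 to 1.21 for Tubb5 and -4.46 to 0.75 for Vim. The keratins kept their direction in RPFs and TE under every alternative run. Depth limits the RPFs: the HB2 total of 141890 reads left 7 reads for Krt8 and 2 for Krt18.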
